A study of Mus musculus with 8 samples.

Results

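Macrophages display on their surface a set of proteins that mark activation and that engage T cells and other leukocytes, and the mRNAs of 10 of these proteins are described here: Cd69, Cd83, Cd40, Cd80, Cd86, Icam1, Cd274, Cd44, Vcam1 and Slamf7. The genes were listed by symbol, with earlier results of the same arrays known, and each was found as the row of the deposited table whose probe set number was its Entrez gene number. All 10 had such a row, among 24011 named genes on 24973 probe sets. Because their change with hepcidin was known when they were chosen, their levels, changes, intervals and counts of calls between hepcidin and PBS are given as a description. A test that the choice did not use is reported for differences between replicate numbers.

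The RNA of primary macrophages was hybridised to 8 Affymetrix whole-transcript arrays. The cells had grown for 7 days from the bone marrow of wild-type mice aged 8 to 10 weeks, with M-CSF, which turns marrow precursors into macrophages, supplied by L cell-conditioned medium. On 4 arrays the cells had received synthetic hepcidin at 10 µg/ml for 1 h, and on the other 4 PBS. Hepcidin, a peptide hormone of iron balance, acts on the iron exporter ferroportin. The labels name no strain. They give the samples of both groups the numbers 1 to 4 without saying if a number is an animal, a culture or a day, so errors and p-values cover no more than the variation among these samples, possibly technical.

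T cell activation needs, beside the antigen receptor signal, a second signal from costimulatory proteins on the antigen-presenting cell. The B7 proteins CD80 and CD86 bind CD28, which activates, and CTLA-4, which inhibits; PD-L1, the product of Cd274, binds the inhibitory receptor PD-1; CD40 receives the helper signal of CD40 ligand. Several of these genes are kept low in resting macrophages and are switched on by NF-kB, AP-1 or interferon signalling after contact with microbial products or cytokines. As bulk RNA was measured, fewer cells of a type and less RNA per cell cannot be told apart.

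The arrays carried the mRNAs that define macrophages. The surface marker gene Adgre1 (encoding F4/80) had a log2 value of 11.47 ± 0.10 with hepcidin and 11.38 ± 0.16 with PBS (mean ± SD, n = 4 each), and the M-CSF receptor gene Csf1r 11.85 ± 0.17 and 11.77 ± 0.26. For an idea of background, 26 marker genes of endothelium, B cells and T or NK cells, lineages that a macrophage culture should lack, had a median log2 value of 3.96 and a 90th percentile of 6.05. The markers Cd22, Vwf and Kdr lay above that percentile, at 6.33, 7.20 and 7.51, so a value under it need not be background. Array medians lay between 4.87 and 4.95. With 4 arrays a group, their number sets the precision.

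With hepcidin, 4 of the 10 genes, Cd69, Cd83, Icam1 and Cd40, had higher values on every hepcidin array than on any PBS array, while the B7 genes Cd80 and Cd86, and Cd274, Cd44, Vcam1 and Slamf7, overlapped between the groups. Over all genes, 0.845% had all 4 hepcidin arrays above all 4 PBS arrays, and 1.03%, with none of the 10, had them all below. Mean differences on the log2 scale were 0.26 for Cd40, 0.34 for Icam1 and 0.36 for Cd83, or 1.19-fold to 1.28-fold. That of Cd69 was 0.51, from PBS values under the 90th percentile of the background markers and above their median, so its ratio may be understated. By comparison, the cytokine gene Tnf was 2.42-fold and the NF-kB inhibitor gene Nfkbia 1.92-fold higher. In limma, a linear model fitted to all 24011 genes, 0 of the 10 genes passed at 0.05 after adjustment over all genes, where the background share was 0% and the smallest adjusted p of any gene was 0.0762. At an unadjusted p under 0.05 there were 4 of the 10, all higher with hepcidin, against 1.33% of all genes higher and 1.53% lower. The genes were chosen with this contrast known, so nothing is read from these counts. With the replicate number as a block, limma again called 0 of the 10 genes, and 0.00416% of all genes, with 4 of the 10 and 4.91% of all genes at an unadjusted p under 0.05.

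Cd69 encodes a C-type lectin that appears early on activated lymphocytes and myeloid cells and that in T cells draws the receptor S1PR1 off the surface. It stood at 6.22, 6.13, 6.52 and 6.42 on the hepcidin arrays numbered 1 to 4, against 5.74, 5.87, 5.67 and 5.98 on the PBS arrays with the same numbers. The lowest hepcidin array lay above the highest PBS array. The 4 PBS values lay under the 90th percentile of the background markers and above their median. RMA compresses ratios near background. The mean difference was 0.51 ± 0.11 (log2, hepcidin minus PBS, ± SE from limma without a block, n = 4 each). By pair of equal number it was 0.47, 0.26, 0.86 and 0.44, each above 0, as the separation of the groups requires.

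Cd83 encodes an immunoglobulin-family protein known as a marker of mature dendritic cells, which keeps MHC class II and CD86 on the surface by opposing the ubiquitin ligase MARCH1. Its values were 7.04, 7.02, 7.30 and 7.27 with hepcidin and 6.72, 6.85, 6.75 and 6.88 with PBS. The hepcidin arrays numbered 3 and 4 were the high ones, and the PBS arrays lay close together, with an SD of 0.08. The mean difference was 0.36 ± 0.09, a ratio of 1.28, with 0.32, 0.17, 0.55 and 0.38 in pairs 1 to 4.

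Cd40 encodes the TNF receptor family member through which CD40 ligand on T cells activates macrophages and B cells. On the hepcidin arrays it had log2 values of 6.47, 6.51, 6.87 and 6.60, against 6.30, 6.37, 6.32 and 6.45 on the PBS arrays. The groups were narrowly apart, since the lowest hepcidin and the highest PBS value differed by less than the SD of either group (0.18 with hepcidin, 0.07 with PBS). Pair 3 stood out, with a difference of 0.55 against 0.18, 0.14 and 0.15 in pairs 1, 2 and 4. The mean difference of 0.26 ± 0.10 was 0.16 without both arrays numbered 3.

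Icam1 encodes the adhesion molecule that binds the leukocyte integrins LFA-1 and Mac-1. It stood at 8.60, 8.69, 9.02 and 8.52 with hepcidin and at 8.21, 8.42, 8.49 and 8.34 with PBS. The hepcidin array numbered 4 was only just above the highest PBS array, while array 3 of each group was the highest of its group. Pairs 1 to 4 differed by 0.39, 0.27, 0.53 and 0.18, with a mean of 0.34 ± 0.12 and a ratio of 1.27. In limma with the replicate block the SE was 0.08.

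Pair 3 had the largest difference of the 4 pairs in each of these 4 genes. In limma without both arrays numbered 3, the differences were 0.39 for Cd69, 0.29 for Cd83, 0.28 for Icam1 and 0.16 for Cd40. Whether a difference in the treatment or handling of number 3 has a part in this was not tested.

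**Figure D1:**
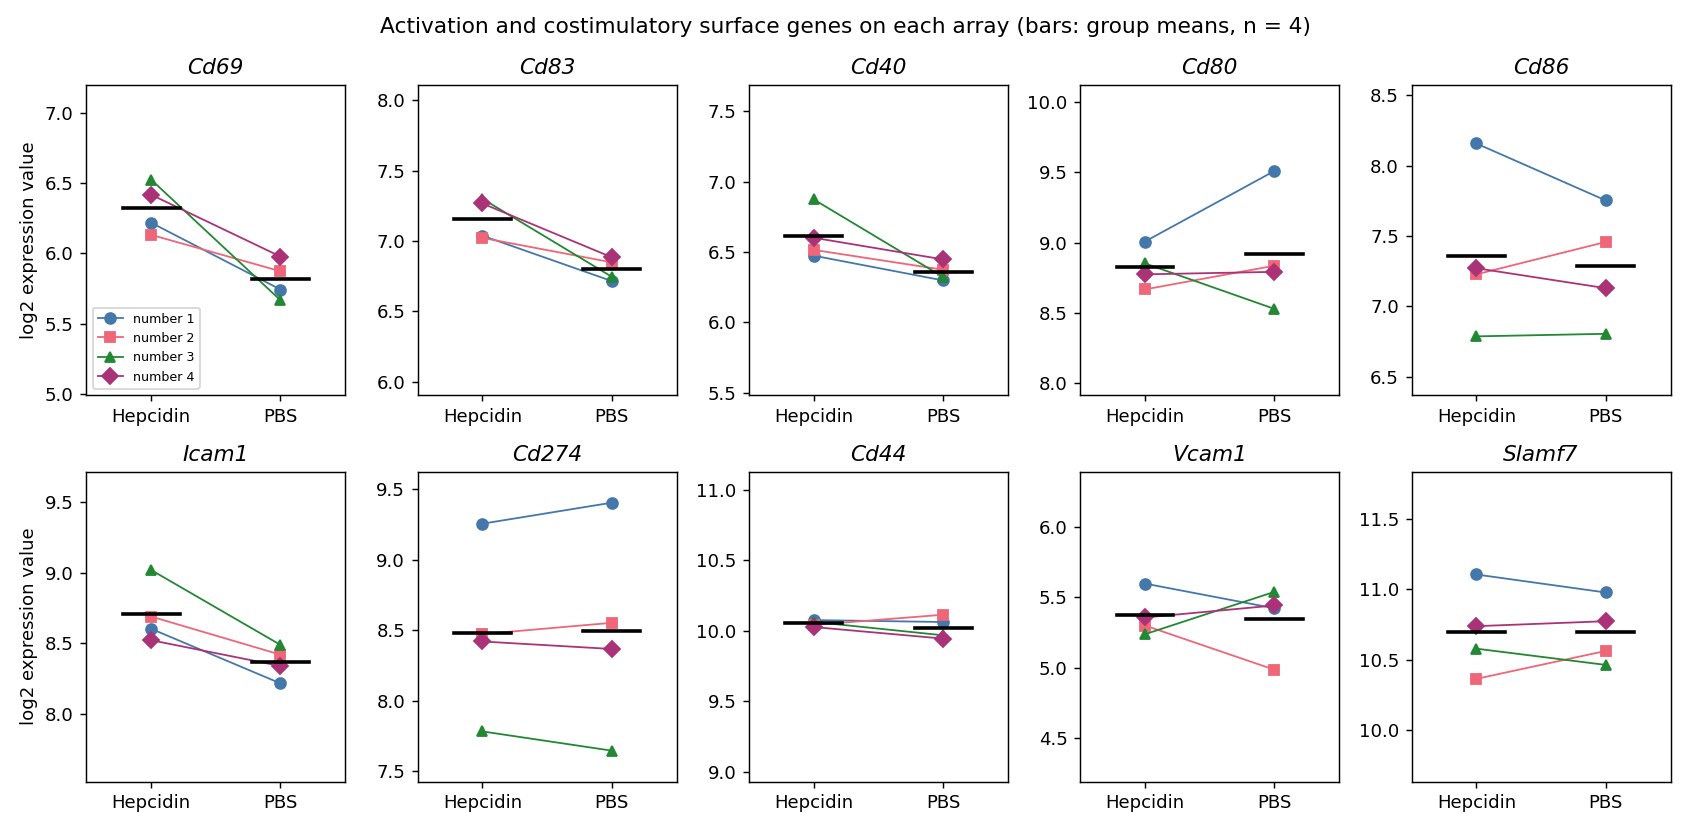
Log2 expression value of each of the 10 genes on each array, with hepcidin on the left and PBS on the right of each panel, lines joining arrays of equal number and bars marking group means (n = 4). Each panel spans the same number of log2 units, so slopes can be compared. In Cd69, Cd83, Cd40 and Icam1 all 4 lines lie higher on the hepcidin side, while in Cd274 the lines are nearly flat and far apart. In Cd274 and Cd86 number 1 is high and number 3 low.

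The annotated promoter of Icam1 is shown because Icam1 is the member among the 4 separated genes for which the RefSeq table of promoter windows held a sequence. The table (GRCm38.p6, from 250 bases before to 50 after the annotated start) held windows for 5 of the 10 genes: Cd80, Icam1, Cd274, Cd44 and Slamf7. The window of Cd274 is printed beside it as that of the gene that differed most between replicate numbers. Capitals mark matches, on either strand, to the palindromic κB motif GGAANTTCC, the κB motif of GGG, 2 free bases and TTTCC, the STAT-binding GAS motif TTCNNNGAA, the interferon response motif of GAAA, 2 free bases and GAAA, the AP-1 motif TGANTCA and the TATA motif TATAAA. The list of motifs was extended after the windows had been read.
Icam1, chr9:21015690-21015989, + strand: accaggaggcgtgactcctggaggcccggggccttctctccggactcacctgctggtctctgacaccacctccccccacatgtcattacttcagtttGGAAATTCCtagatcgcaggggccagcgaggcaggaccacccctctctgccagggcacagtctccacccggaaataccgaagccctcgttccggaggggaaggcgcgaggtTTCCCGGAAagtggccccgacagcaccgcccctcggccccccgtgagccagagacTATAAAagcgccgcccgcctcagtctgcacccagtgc
Cd274, chr19:29367188-29367487, + strand: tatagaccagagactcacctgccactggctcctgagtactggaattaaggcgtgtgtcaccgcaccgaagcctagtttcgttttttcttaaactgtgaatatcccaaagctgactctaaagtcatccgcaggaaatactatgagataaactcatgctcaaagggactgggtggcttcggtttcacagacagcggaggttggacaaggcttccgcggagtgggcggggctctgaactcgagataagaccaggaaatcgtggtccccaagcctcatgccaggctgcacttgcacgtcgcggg

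The Icam1 window held GGAAATTCC 153 to 145 bases before the annotated start, a match to the palindromic κB motif that 0.928% of 32851 promoter windows of mouse genes hold. It also held TTCCCGGAA 42 to 34 bases before the start, a match to the GAS motif found in 8.3% of windows, and a TATA motif just past the annotated start, found in 13.6%. None of these matches overlapped a match to another motif, and the κB and GAS motifs are palindromic patterns, so each match counts on both strands. The windows of Cd80 and Slamf7 each held 1 AP-1 motif, TGATTCA in Cd80 and TGACTCA in Slamf7, both 42 to 36 bases before the start, where 7.81% of all windows hold that motif. In Cd80 there was also a TATA motif on the other strand. The windows of Cd274 and Cd44 held none of the 6 motifs, and none of the 5 windows held the longer κB motif (1.63% of all windows) or the interferon response motif (3.44%). A match is a description of the sequence only. Because motifs were added after the windows had been read, the shares do not tell how unlikely a match was.

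Neither of the B7 genes Cd80 and Cd86 differed between hepcidin and PBS beyond the spread of its pairs. Cd80 had log2 values of 9.01, 8.67, 8.85 and 8.77 on the hepcidin arrays, against 9.51, 8.84, 8.53 and 8.79 on the PBS arrays, and pairs 1 to 4 differed by -0.50, -0.17, 0.32 and -0.02. The mean difference of -0.09 ± 0.18 was smaller than the spread of the pairs, and its 95% confidence interval in limma ran from -0.50 to 0.32. Cd86 had 8.16, 7.23, 6.79 and 7.27 with hepcidin and 7.75, 7.46, 6.81 and 7.13 with PBS. The array numbered 1 was the highest and the array numbered 3 the lowest in both groups, and the PBS values lay within the range of the hepcidin values. The mean difference of Cd86 was 0.07 ± 0.28, with 0.40, -0.23, -0.02 and 0.14 in pairs 1 to 4. With the replicate number as a block, the SE of Cd86 was 0.11 and its interval ran from -0.18 to 0.32.

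Cd274, which encodes PD-L1, had values of 9.26, 8.47, 7.78 and 8.42 with hepcidin and 9.41, 8.55, 7.65 and 8.37 with PBS. Each hepcidin array lay close to the PBS array of the same number, with differences of -0.15, -0.08, 0.14 and 0.05, while the numbers themselves were far apart. The mean difference was -0.01 ± 0.37, with a 95% confidence interval from -0.84 to 0.82. With the replicate number as a block, the SE was 0.08 and the interval ran from -0.19 to 0.17.

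In Cd44, Vcam1 and Slamf7 the hepcidin and PBS arrays overlapped as well. Cd44, the receptor for hyaluronan, was nearly level over the arrays, with 10.07, 10.04, 10.06 and 10.03 with hepcidin and 10.06, 10.11, 9.97 and 9.94 with PBS, a mean difference of 0.03 ± 0.07. Its 95% confidence interval, from -0.13 to 0.19, was the narrowest of the 10 genes. Vcam1, the ligand of the integrin VLA-4, stood at 5.60, 5.30, 5.24 and 5.36 with hepcidin and at 5.42, 4.98, 5.54 and 5.44 with PBS. All 8 values of Vcam1 lay under the 90th percentile of the background markers, so its difference of 0.03 ± 0.13 carries little information. Slamf7, a self-binding receptor of activated macrophages, NK cells and plasma cells, had 11.10, 10.36, 10.58 and 10.74 with hepcidin and 10.98, 10.56, 10.46 and 10.77 with PBS. Its mean difference was 0.00 ± 0.16, with 2 of 4 pairs higher. With the replicate number as a block, the SE of Slamf7 was 0.08.

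Taken over the 10 genes, the median difference was 0.05 and 8 had a mean above 0, where the median over all genes was 0.00 and 50.4% lay above 0. The 4 genes whose groups were apart were higher in 4 of 4 pairs, which their separation makes certain. Of all genes, 5.69% were higher in 4 of 4 pairs. The medians of the 10 genes by pair were 0.18, 0.03, 0.23 and 0.11. Without the hepcidin array numbered 1 the median turned to -0.014, with 5 of the 10 genes above 0. Without the PBS array numbered 1 it was 0.23, with 10 of 10 above 0, and without the hepcidin array numbered 3 it was 0.20. These fits leave an array without its partner of the same number.

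**Figure D2:**
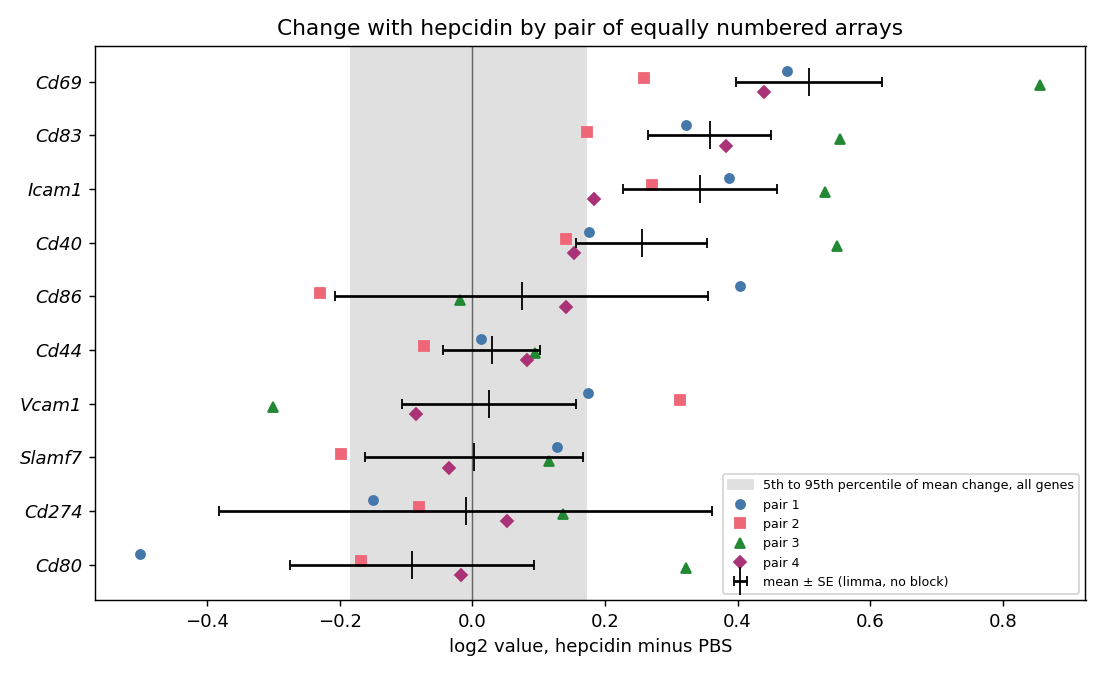
Log2 value with hepcidin minus PBS for each gene, with 1 marker for each pair of equally numbered arrays and a black bar for the mean ± SE from limma without a block. The grey band spans the 5th to the 95th percentile of the mean change of all genes, from -0.18 to 0.17. The means of Cd69, Cd83, Icam1 and Cd40 lie right of the band. The pairs of Cd80, Cd86, Cd274, Cd44, Vcam1 and Slamf7 lie on both sides of 0.

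The arrays differed by replicate number in Cd274 and Cd86. In a limma F-test on the number, with treatment in the model, Cd274 had an adjusted p of 0.00203 and Cd86 an adjusted p of 0.0188 over all genes, and the other 8 genes did not pass. Of all genes 5.6% passed, and of the genes with a mean log2 value of at least 6, as 9 of the 10 have, 11.87%. The mean of both Cd274 arrays was 9.33 on number 1, 8.51 on number 2, 7.71 on number 3 and 8.39 on number 4, a range of 1.62. That of Cd86 was 7.95, 7.34, 6.80 and 7.20, a range of 1.16. In both genes number 1 was the highest and number 3 the lowest with hepcidin and with PBS alike.

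Cd80 and Slamf7 were also highest on number 1, by 0.52 and 0.46 over the mean of the other 6 arrays. The same F-test, which compares all numbers at once, gave adjusted p-values of 0.237 and 0.0681. Slamf7 passed in limma with trended and robust variances (adjusted p 0.00308), among genes with a mean of at least 6 (0.0102) and without the treatment term (0.0388). These settings also called more of the genes fitted, 11.8%, 31.2% and 6.82% in that order, against 5.6% in the test above. The 31.2% comes from a fit and adjustment over the genes with such a mean alone, unlike the share given above for them. The 4 genes with groups apart had ranges from 0.20 for Cd83 to 0.35 for Icam1. Groups that differ by so little can be apart only if the numbers differ little. These small ranges are thus partly fixed by how the 4 were picked. Cd44 had the smallest range, 0.09. The median range was 0.36 over the 10 genes, 0.25 over all genes and 0.30 over the genes with a mean of at least 6.

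Without both arrays numbered 1, Cd274 had an adjusted p of 0.0527 and Cd86 one of 0.184 in the limma F-test, and 0.691% of all genes passed. Without both arrays numbered 3, Cd274 passed (0.0112) and Cd86 did not (0.0754). When single arrays were left out, Cd274 passed each time, with adjusted p-values up to 0.0253. Cd86 did not pass in 5 of these 8 fits, without the hepcidin arrays numbered 1 (0.0764), 3 (0.0664) or 4 (0.0578) or the PBS arrays numbered 3 (0.054) or 4 (0.0612).

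Other genes moved with the number on the same arrays. The list of 10 neutrophil and precursor genes had a mean on number 1 of -1.37 relative to the other 6 arrays, and 8 of the 10 differed between numbers in the limma F-test. Its mean level per array ran from 4.75 to 6.38 with hepcidin and from 4.90 to 6.41 with PBS. For the 6 genes of the macrophage list that mean was -0.55, and -0.29 over the other 5 without the Fc receptor gene Fcgr1, which stood at -1.87 and was singled out after its value was seen. The dendritic cell list, whose cells express Cd83 and Cd86, had mean levels from 4.74 to 4.95 with hepcidin and from 4.86 to 4.96 with PBS. Of its 8 genes 7, among them Flt3, Zbtb46 and Xcr1, lay under the 90th percentile of the background markers. The remaining gene of that list, Itgax, had a mean of 8.44 and stood at -0.61 on number 1. It differed between numbers in the limma F-test (adjusted p 0.0113). The fibroblast list, whose cells express Vcam1 and Cd44, had 8 of 8 genes under it. The part of other cells in the differences of Cd274 and Cd86 between numbers was not tested.

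**Figure D3:**
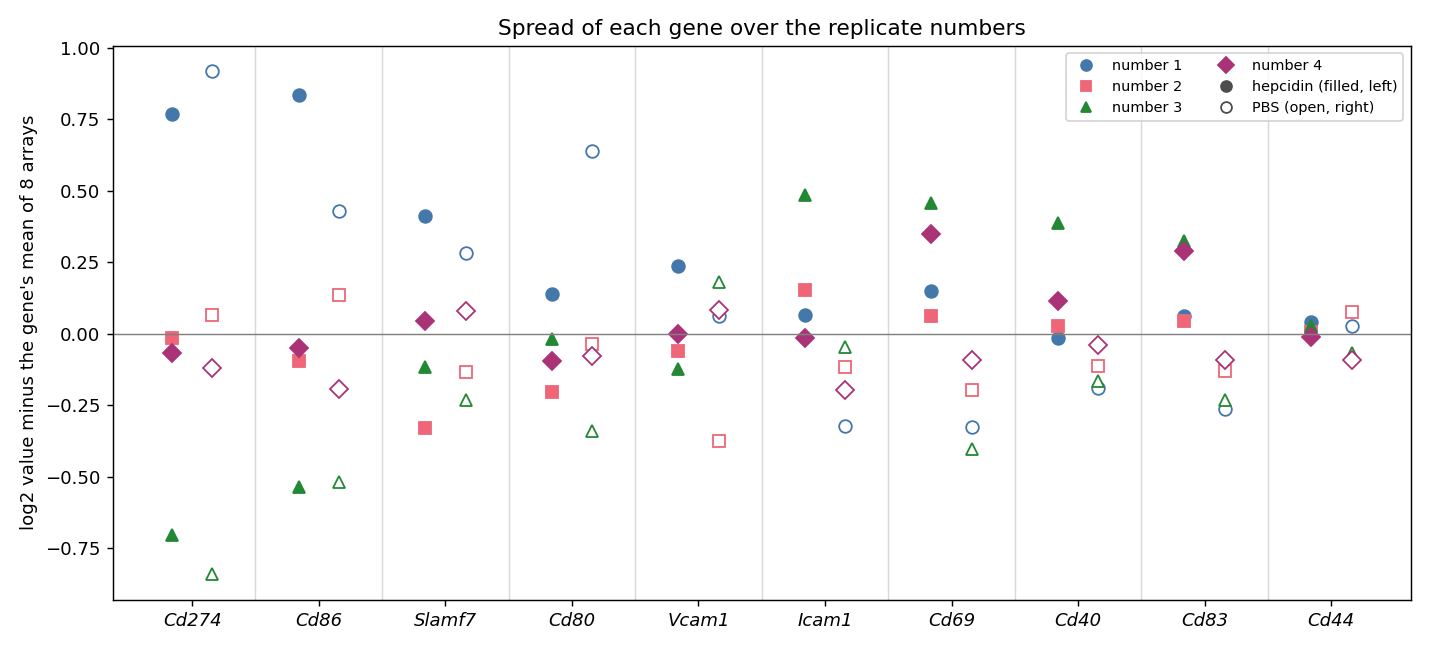
Log2 value of each gene on each array minus the gene's mean over the 8 arrays, with colour and shape for the replicate number, filled symbols for hepcidin and open symbols for PBS. Genes run from left to right by the range over the means of the numbers, from 1.62 in Cd274 to 0.09 in Cd44. In Cd274 and Cd86 number 1 lies highest and number 3 lowest under both treatments, with numbers 2 and 4 interleaved in Cd86, and in Cd69, Cd83, Cd40 and Icam1 the filled symbols lie above the open ones.

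Cd69 and Cd83 were set beside the other genes with a mean of at least 6 by the root mean square difference of their profiles over the 8 arrays, each gene taken as deviation from its own mean. Closest to Cd69 were Tnfsf9, the 4-1BB ligand gene, at 0.12, the prostaglandin E2 receptor gene Ptger4 at 0.12 and the ribosomal protein gene Rps25 at 0.13, where Cd69 itself had an SD of 0.31 over the arrays. Closest to Cd83 were the inflammasome sensor gene Nlrp3, Tnip3 and Ptger4, each at 0.10, against an SD of 0.22. Mean differences between hepcidin and PBS were 0.43 ± 0.12 for Tnfsf9, 0.42 ± 0.12 for Rps25, 0.38 ± 0.14 for Ptger4, 0.34 ± 0.11 for Nlrp3 and 0.21 ± 0.11 for Tnip3. The genes closest to Cd40 were Kifbp, P3h1 and Tnip3, at 0.08 to 0.09, and those closest to Icam1 were Arl16, Cox7a2l and Madd, at 0.08 to 0.10. Kifbp and P3h1 differed between hepcidin and PBS by 0.13 ± 0.11 and 0.16 ± 0.08, and Arl16, Cox7a2l and Madd by 0.25 ± 0.12, 0.24 ± 0.10 and 0.16 ± 0.11. The ranking covered 9265 genes, and nothing beyond the likeness of 8 values follows from it. The profiles compared hold the step between hepcidin and PBS. Differences of the same sign as in the 4 genes therefore largely follow from the ranking and are no separate result.

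The receptors, ligands and partners of the 10 proteins were followed in 8 lists with 76 measured genes of 80 entries. In limma, 0 of the 76 passed over all genes in either direction, with 1 higher and 1 lower at an unadjusted p under 0.05. Of the 76, 44 had a mean difference above 0, and the median was 0.02, against 0.00 over all genes. The 46 genes with a mean log2 value of at least 6 may be named. Their SEs come from limma without the replicate block. They therefore take in the differences between numbers and can be larger than the error of a paired difference.

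In the B7 and CD28 family, with 6 of 9 genes above 0 and a median difference of 0.02, the ICOS ligand gene Icosl had 8.01 ± 0.40 on the hepcidin arrays and 7.78 ± 0.15 on the PBS arrays (SD, n = 4), with 3 of 4 pairs higher. Cd276, which encodes B7-H3, differed by -0.02 ± 0.30 and Vsir, the gene of the checkpoint protein VISTA, by -0.03 ± 0.17. Among 12 genes of TNF family costimulation and CD40 signalling, Tnfsf9 stood at 7.63 ± 0.23 with hepcidin and 7.21 ± 0.11 with PBS. Its groups were apart, so 4 of 4 pairs were necessarily higher. Traf1, whose product binds the tails of TNF receptors, was at 7.73 ± 0.30 with hepcidin and 7.42 ± 0.36 with PBS, a difference of 0.31 ± 0.19, and the adaptor genes Traf2 and Traf6 differed by 0.10 ± 0.11 and 0.01 ± 0.07. Traf5 was lower with hepcidin in 4 of 4 pairs, with a mean difference of -0.18 ± 0.16.

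Genes of the SLAM family, the relatives and adaptors of Slamf7, had a median difference of -0.03, with 4 of 10 above 0. Cd48, the ligand of CD244, differed by 0.02 ± 0.10, Cd84 by -0.02 ± 0.08 and Ly9 by 0.06 ± 0.09. The integrin genes whose products bind ICAM-1 or VCAM-1 had differences smaller than their SEs. These were 0.07 ± 0.11 for Itgal, 0.07 ± 0.07 for Itgb2, -0.04 ± 0.09 for Itga4 and 0.02 ± 0.07 for Itgb1. Itgam differed by 0.06 ± 0.12, Itgax by 0.18 ± 0.26 and Itgb7 by 0.00 ± 0.34. Itgb2 was higher in 4 of 4 pairs and Itga4 in 1 of 4. In the CD44 and hyaluronan list of 11 genes, the cytoskeletal linker genes Ezr, Rdx and Msn differed by 0.15 ± 0.13, -0.04 ± 0.08 and 0.03 ± 0.08. S1pr1, the gene of the receptor that CD69 binds, differed by -0.02 ± 0.12, and Clec2d, which encodes a lectin related to CD69, by 0.18 ± 0.13 with 4 of 4 pairs higher. Cmtm6, whose product keeps PD-L1 on the surface, stood at 9.01 ± 0.13 with hepcidin and 8.92 ± 0.27 with PBS. Marchf8, a ubiquitin ligase gene related to that of MARCH1, differed by 0.08 ± 0.08.

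**Figure D4:**
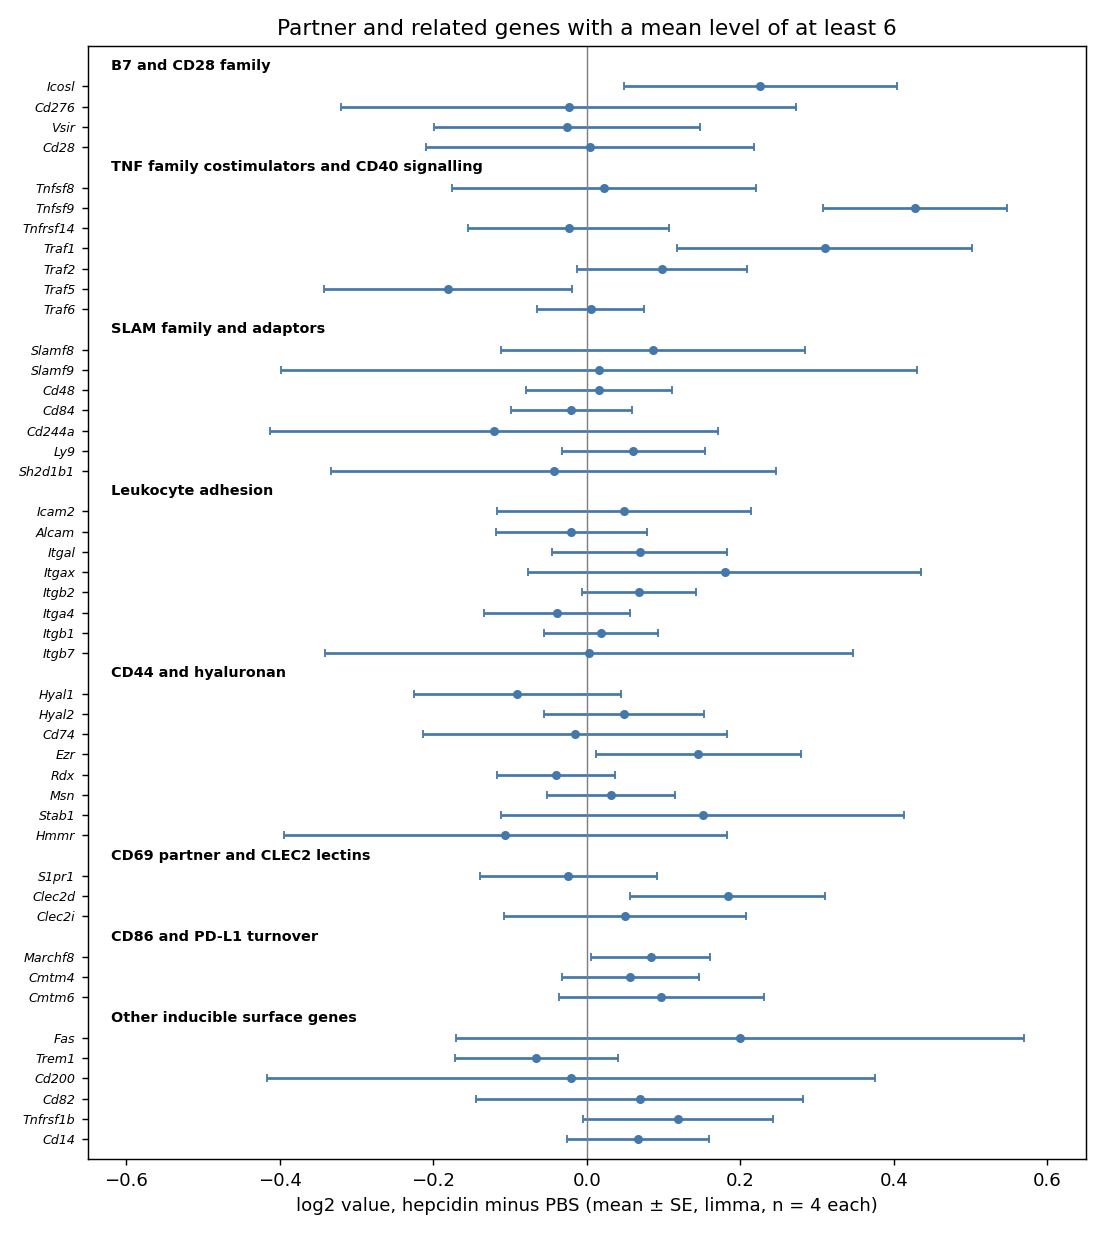
Log2 value with hepcidin minus PBS of the 46 partner and related genes with a mean of at least 6, grouped by list. Points and bars give the mean ± SE from limma without a block (n = 4 each). Tnfsf9, at 0.43, lies farthest from 0, and none of the genes drawn passed the adjusted threshold of 0.05 over all genes.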

How the data were processed

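The deposited values are log2 expression values that the authors made by RMA (affy 1.36.1), per the submitters' processing notes. This method subtracts background, makes the distributions of the arrays equal and combines the probes of a gene; it compresses ratios near background. How probe sets were defined, and on which build, is not given in the sources used here. No filter or further normalization was applied to the values (1.73 to 13.6). The platform annotation named 24015 of 24973 probe sets, each numbered by its Entrez gene, and 958 had no listed gene. The brightest probe set was kept for each symbol, which left 24011 genes.

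Groups and numbers came from the sample titles. Hepcidin was compared with PBS in limma 3.58.1 (R 4.3.3, lmFit and eBayes), with Benjamini-Hochberg adjustment over all genes and a threshold of 0.05. Replicate numbers were compared by an F-test in a limma model with treatment. Both were tested on simulated data. Deviations from the group means correlated, across genes, at 0.344 to 0.548 between arrays of equal number and at -0.356 to 0.124 between others, so the numbers pair the arrays.

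The 10 genes, the gene lists and the tests were chosen with earlier results of these data known. Named were the 10 genes, list genes with a mean of at least 6, the 3 genes closest in profile to Cd69, Cd83, Cd40 and Icam1, and Tnf, Nfkbia, Adgre1 and Csf1r. Dendritic cell genes under background were named after their values were seen. Figures were drawn with matplotlib 3.10.9.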

Additional observations from a re-analysis of the deposited data

Results flagged for a closer look

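The difference of Cd40 between hepcidin and PBS in pair 3, 0.551 on the log2 scale, lay apart from those of the other 3 pairs, which ran from 0.141 to 0.176. The gap to the nearest pair was 0.915 of the whole range of the 4 pairs; Dixon's test at the 95% level flags this. It was the 1 such value among 30 sets of 4 tested (the hepcidin arrays, the PBS arrays and the pairs of each of the 10 genes), where chance gives about 1 in 20.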

How the results depend on the processing

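In limma, 0 of the 10 genes passed for hepcidin against PBS under any setting tried, among them median centring, quantile normalization, cyclic loess, array weights and all probe sets. Over all genes, 1 passed with the replicate block, 5 with it as a random term, 3 among genes with a mean of at least 6, 6 with that filter and the block, 1 with the block without both arrays numbered 1, and 0 to 2 without single arrays. The pairing by number changed no call of a member. The differences of Cd69, Cd83, Icam1, Cd40 and Cd44 were above 0 under all 22 settings. Blocks, variance settings and the choice of genes cannot change a difference in this balanced design, so those settings add nothing to that count. With groups apart, leaving out arrays cannot turn the sign of the first 4 either. The difference of Cd44 fell to 0.004 without the PBS array numbered 4. The first 4 genes also kept their groups apart under each scaling. Leaving out arrays cannot undo this, so it shows no stability. The median difference of the 10 genes lay between -0.014 and 0.23 without single arrays. By replicate number, 2894 genes passed among those with a mean of at least 6 (31.2%), 2844 with trended and robust variances, 508 to 827 without single arrays and 166 without both arrays numbered 1, against 1345. Of the 10 genes, 1 to 2 passed without single arrays, 0 without both arrays numbered 1 and 1 without both numbered 3, a setting chosen after seeing the data, as was the count of genes with groups apart. Fewer samples remain in these fits. Vcam1, and Cd69 with PBS, lay under the 90th percentile of the background markers and may be limited by signal.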

Other observations

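Genes of the 8 lists of related surface, adhesion and signalling genes also differed between replicate numbers. In the limma F-test 18 of the 46 list genes with a mean of at least 6 passed (39.13%), against 11.87% of all genes with such a mean. Cd200, which encodes a ligand that restrains macrophages, was higher on number 1 than on the other 6 arrays by 1.21 (adjusted p 0.00119), the death receptor gene Fas by 1.11 (0.00764) and the integrin gene Itgb7 by 1.03 (0.0177). Slamf9 (-1.30, adjusted p 0.00218), Cd276 (-0.78, 0.00318) and Vsir (-0.55, 0.0359) were lower on number 1. All these adjusted p-values come from the F-test over all numbers, which does not test number 1 against the others. Cd276, for example, was also higher on number 2, by 0.77. Among the rest of the 18, Stab1 (-0.78) and Slamf8 (-0.64) were lower on number 1 and Cd82 (0.53) was higher. Itgb7 was lowest on number 3 (-0.81), as Cd274 and Cd86 were, while Cd200 was lowest on number 2 (-0.78) and Fas on number 4 (-0.87).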
